A study of Mus musculus with 16 samples.

Results

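The 10 genes described here belong to vasoactive peptide signalling and were followed across mouse hepatic stellate cells in 5 states. They encode the peptides endothelin 1 (Edn1) and adrenomedullin (Adm), the endothelin converting enzyme Ece1, the endothelin receptors Ednra and Ednrb, the angiotensin II receptor Agtr1a, the receptor Calcrl with its partner proteins Ramp1 and Ramp2, and the cGMP-dependent protein kinase Prkg1. A gene was represented by the probe set that the platform annotation gives to its symbol alone, and, where several exist, by the one with the highest mean over all 16 arrays. Under this rule 9 of the 10 genes had a probe set, out of 18193 genes on the array, and Ednra was not analysed here. The 9 genes had 19 probe sets. All 9 passed the filter for testing, for which 2 or more arrays had to reach log2 5.

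All cells came from male Balb/c mice of 8 to 10 weeks, were enriched by density centrifugation, and macrophages had been removed by a surface antigen (that of Adgre1). Culture denotes cells kept 5 days in medium with 10% fetal bovine serum (3 arrays). Coculture denotes cells kept the same way while hepatic macrophages (Kupffer cells) shared the medium across a transwell insert, without contact (2 arrays, since a further one named in the design was not analysed here). Bile duct ligation denotes cells of mice whose common bile duct had been tied for 15 days, plated for 24 h (3 arrays). CCl4 denotes cells of mice given 4 intraperitoneal doses of carbon tetrachloride at 0.5 µl per g body weight, also plated for 24 h (3 arrays). Quiescent cells came from normal mice and were plated for 24 h (5 arrays), so no group was measured without time on plastic. The labels do not say which arrays of a group came from separate mice, and p-values therefore measure the spread between these preparations.

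Stellate cells lie around the liver sinusoids as pericytes, contract or relax in answer to vasoactive peptides, and turn into contractile, matrix-producing cells after injury. Ece1 cleaves the endothelin precursor to the active peptide, which binds the receptors of Ednra and Ednrb. Angiotensin II signals through the Agtr1a receptor, which raises calcium and contractile tone. Calcrl binds calcitonin gene-related peptide (CGRP) when paired with Ramp1 and adrenomedullin when paired with Ramp2, and these receptors raise cyclic AMP. Prkg1 is the kinase through which nitric oxide and natriuretic peptides, acting by way of cyclic GMP, relax smooth muscle.

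The promoters of the 2 peptide genes are shown because these genes encode the ligands. Edn1 was highest after the injuries and Adm in the 2 cultures, and both rose in coculture. Each sequence holds 250 bases before and 50 bases from the annotated start, 5′ to 3′, from RefSeq on build GRCm38.p6. Edn1 lies at chr13:42301226-42301525 and Adm at chr7:110627407-110627706, both on the plus strand.
Edn1: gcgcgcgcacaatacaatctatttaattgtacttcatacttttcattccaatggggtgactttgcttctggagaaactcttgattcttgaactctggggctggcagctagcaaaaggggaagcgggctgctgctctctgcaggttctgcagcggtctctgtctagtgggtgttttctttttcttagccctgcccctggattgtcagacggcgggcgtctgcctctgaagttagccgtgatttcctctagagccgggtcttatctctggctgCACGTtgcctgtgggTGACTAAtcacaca
Adm: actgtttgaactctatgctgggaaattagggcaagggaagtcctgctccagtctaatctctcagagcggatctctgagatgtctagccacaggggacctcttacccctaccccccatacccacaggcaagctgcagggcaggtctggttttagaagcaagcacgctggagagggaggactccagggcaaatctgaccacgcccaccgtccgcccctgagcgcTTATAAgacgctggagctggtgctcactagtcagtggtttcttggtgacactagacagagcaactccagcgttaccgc
Capitals mark matches to 3 motifs searched on both strands, which were chosen after the sequences had been read. In Edn1 they are CACGT, the reverse complement of the hypoxia response core ACGTG, beginning 22 bases into the transcript, and an AP-1 type motif, TGACTNA, beginning at base 37 of it. In Adm they are TTATAA, where matches to the TATA core TATAA on the 2 strands overlap, 28 bases before the start. Of the 32851 promoters in the table, 19.6% hold the hypoxia response core, 13.9% the AP-1 type motif and 24.9% the TATA core. Among the 8 listed genes with a promoter in the table, 2 hold the first motif (Edn1 and Ece1), 1 the second (Edn1) and 1 the third (Adm). Here a gene counts if any of its promoters holds the motif, whereas the percentages count single promoters. Ece1 has several promoters in the table, and not all of them hold the motif. A match is a run of letters and says nothing about binding.

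Values are log2 expression, on which a difference of 1 is 2-fold, and probe sets without signal pile up near log2 2 (array medians 2.00 to 2.06). Between 6803 and 7037 genes reached log2 5 on an array, and correlations between arrays over genes lay between 0.929 and 0.983 within groups. The stellate marker list (9 genes measured) averaged 8.03 to 9.61 on every array, but its genes moved both ways. Of 8 tested, 4 rose and 1 fell in culture against quiescent cells (18.5% and 23.5% of all tested genes). In coculture 2 rose and 3 fell (17.8% and 20.9%). After bile duct ligation 2 rose and 2 fell (8.03% and 8.83%), and after CCl4 2 rose and 3 fell (9.51% and 12.5%). Reln fell in coculture (-3.25) and after both injuries (-1.13 and -1.40). Cygb and Pdgfrb fell in coculture and after CCl4. Markers of other cells also differed between groups. The summed linear level of 10 hepatocyte markers was 30 to 45 in culture, 30 to 36 in coculture, 234 to 685 after bile duct ligation, 412 to 3031 after CCl4 and 30 to 54 in quiescent cells, and that of 6 mesothelial markers was 21 to 22, 20 to 22, 127 to 196, 161 to 1154 and 18 to 23 in the same order of groups. The highest values of both lists belonged to CCl4 replicate 3, on which 7 of the 10 hepatocyte markers reached log2 5. The 13 macrophage markers summed to 79 to 91 in culture, 304 to 308 in coculture, 122 to 439 after bile duct ligation, 171 to 354 after CCl4 and 107 to 263 in quiescent cells, while Adgre1, whose protein was the target of the depletion, had group means of 1.54 to 2.23 and so stayed at the background. The 18 endothelial markers summed to 108 to 173 in culture, 163 to 228 in coculture, 143 to 246 after bile duct ligation, 132 to 143 after CCl4 and 177 to 319 in quiescent cells. Of that list Esam and Egfl7 passed the filter, and the defining genes Cdh5 and Pecam1 had group means of at most 2.52 and 2.14. The 7 smooth muscle and pericyte markers summed to 821 to 952 in culture, 714 to 1379 in coculture, 1296 to 1966 after bile duct ligation, 1242 to 2003 after CCl4 and 1218 to 2551 in quiescent cells. Of the 6 tested, 4 were higher and Rgs5 fell after each injury. Over all tested genes 8.03% rose and 8.83% fell after bile duct ligation, and 9.51% and 12.5% after CCl4. Actg2, a smooth muscle actin, was higher by 5.17 after bile duct ligation and 4.15 after CCl4. None of the 4 higher genes reached log2 5 in quiescent cells. Whether they would pass the filter without the injury arrays was not examined, so their calls are not read as a result. Of the 5 cholangiocyte markers Krt19 alone passed the filter, through its coculture arrays (5.60, against 1.58 in quiescent cells). In bulk RNA, fewer cells of a type and less RNA per cell cannot be told apart.

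**Figure D1:**
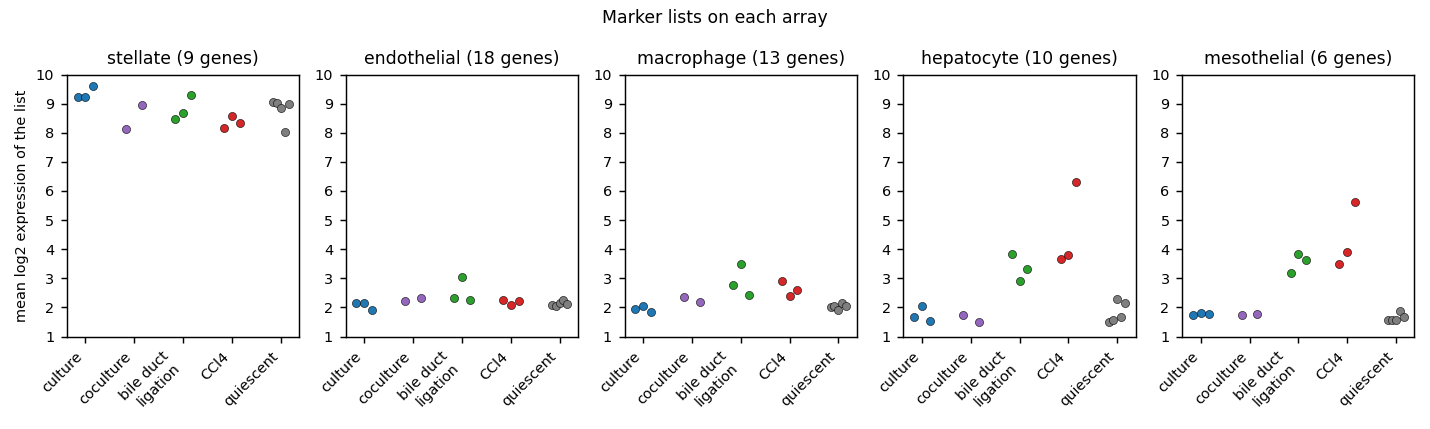
Mean log2 expression of marker lists (y axis) on each array (points), by group (x axis). The stellate list is high on all 16 arrays, and the hepatocyte and mesothelial lists are higher after both injuries than in the other groups, highest on 1 CCl4 array.

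The 9 genes were tested in one limma fit over the 7823 genes that passed the filter, and a gene is said to have risen or fallen where its Benjamini-Hochberg adjusted p over all of these was under 0.05. In culture against quiescent cells 4 of the 9 rose (Agtr1a, Adm, Ramp1 and Prkg1), 2 fell (Ece1 and Ramp2) and 3 did not pass, where 42.1% of all tested genes were called (18.5% higher and 23.5% lower). In coculture 3 rose (Edn1, Agtr1a and Adm) and 4 fell (Ece1, Ednrb, Calcrl and Ramp2), where 38.7% of tested genes were called (17.8% higher and 20.9% lower). After bile duct ligation Edn1 rose and 3 genes fell (Ednrb, Calcrl and Ramp2), where 16.9% were called (8.03% higher and 8.83% lower). After CCl4 Edn1 rose and 5 fell (Ece1, Ednrb, Agtr1a, Calcrl and Ramp2), where 22% were called (9.51% higher and 12.5% lower). Edn1 entered the test only through its injury arrays, so its calls after the injuries follow from its admission and are not read as a result. Ramp2 fell in all 4 states, and these comparisons share the same 5 quiescent arrays. Arrays that did not overlap with the quiescent ones, higher or lower, were found for 17.5% and 21.6% of tested genes in culture, 21.6% and 24.8% in coculture, 10.8% and 11.8% after bile duct ligation, and 11.4% and 14.2% after CCl4. The median difference of the 9 genes was 0.32 in culture, -0.85 in coculture, -0.28 after bile duct ligation and -0.88 after CCl4, against medians between -0.052 and -0.043 over all tested genes.

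**Figure D2:**
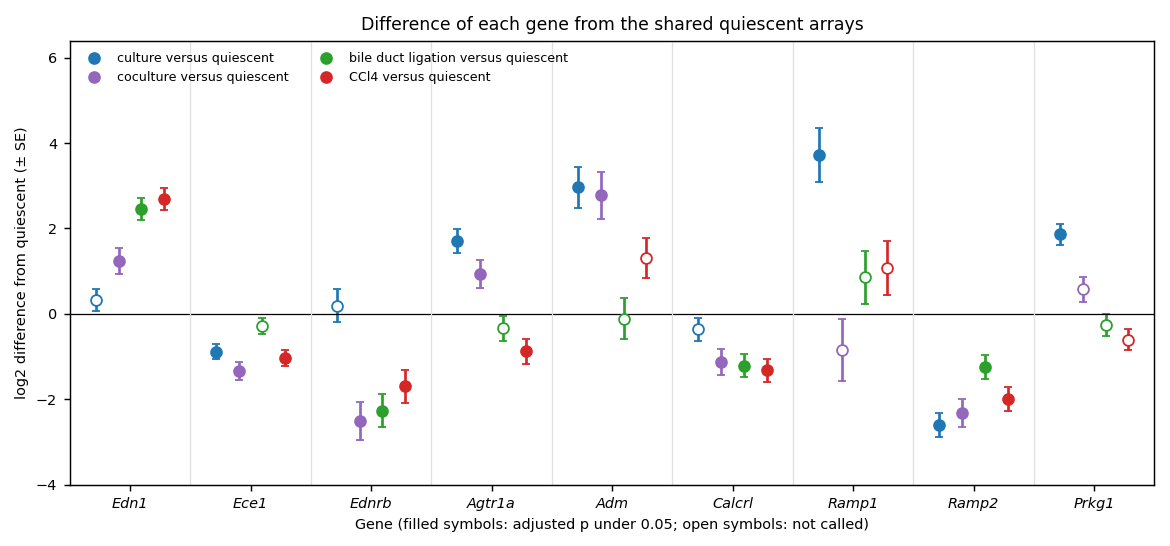
Log2 difference (y axis, ± SE) of each gene (x axis) from the 5 shared quiescent arrays, coloured by state, filled where adjusted p was under 0.05. Edn1 lies above 0 after both injuries (2.45 and 2.69), Adm above 0 in both cultures (2.96 and 2.78), and Ramp2 below 0 in all 4 states.

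The ligand Edn1, the precursor of the vasoconstrictor endothelin 1, read highest after both injuries and rose in coculture. Probe set 1451924_a_at read 3.00, 2.84 and 2.56 in culture, 3.66 and 3.78 in coculture, 5.12, 4.74 and 4.94 after bile duct ligation, 5.39, 4.56 and 5.55 after CCl4, and 2.19, 2.22, 2.77, 2.53 and 2.67 in quiescent cells. All 6 injury arrays lay above all others, the 2 coculture arrays came next, and culture overlapped quiescent cells. Edn1 was 2.45 ± 0.27 higher after bile duct ligation than in quiescent cells (5.48-fold; limma adjusted p = 1.71e-05), 2.69 ± 0.27 higher after CCl4 (6.45-fold; adjusted p = 6.66e-06) and 1.24 ± 0.31 higher in coculture (adjusted p = 0.00511). In culture the difference was 0.32 (95% interval -0.24 to 0.89; adjusted p = 0.345). Edn1 passed the filter only through its injury arrays, so its calls after the injuries follow from its admission and are not read as a result. The coculture arrays lay below the filter, and the quiescent level is close to the background, so these folds depend on the background estimate. Hepatocyte, mesothelial and 4 of 6 tested smooth muscle and pericyte markers were also higher on injury arrays. Their part in the Edn1 levels and in the injury results of the other genes was not tested. Without CCl4 replicate 3, the difference after CCl4 was 2.50 for Edn1 (adjusted p = 0.000123), -1.83 for Ednrb, -1.21 for Ece1, -1.34 for Calcrl and -1.85 for Ramp2, each called. The hepatocyte sums of the 2 CCl4 arrays left were 412 and 740, still above those of quiescent cells.

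Ece1, the membrane protease that makes active endothelin, fell in 3 of the 4 states. Probe set 1434177_at read 9.86, 9.44 and 9.48 in culture, 9.22 and 9.05 in coculture, 10.20, 9.98 and 10.40 after bile duct ligation, 8.87, 9.67 and 9.76 after CCl4, and 10.60, 10.59, 10.14, 10.47 and 10.58 in quiescent cells. Every culture, coculture and CCl4 array lay below the quiescent range, while bile duct ligation overlapped it. Ece1 fell by 0.88 in culture (SE 0.19; adjusted p = 0.00162), by 1.34 in coculture (SE 0.21; adjusted p = 0.000236) and by 1.04 after CCl4 (SE 0.19; adjusted p = 0.00116). After bile duct ligation it differed by -0.28 ± 0.19 (adjusted p = 0.334), whereas the other expressed probe set of the gene fell by 0.55 there (adjusted p = 0.00942). Averaged over all probe sets of Ece1 the differences shrank to -0.38, -0.73 and -0.67 in culture, coculture and after CCl4, each still called. That average includes 1441423_at, which stayed at background with group means of 1.30 to 1.46 and so pulls the differences toward none. Of the other endothelin genes with a probe set, only Ece2, a related protease, passed the filter. It fell in culture (-1.49 ± 0.32; adjusted p = 0.00163), rose after bile duct ligation (1.02 ± 0.32; adjusted p = 0.0369), and differed by 0.09 in coculture and 0.59 after CCl4 without passing. The peptide genes Edn2 and Edn3 stayed at group means of 1.07 to 1.32 and 2.43 to 2.87 and were not tested.

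**Figure D3:**
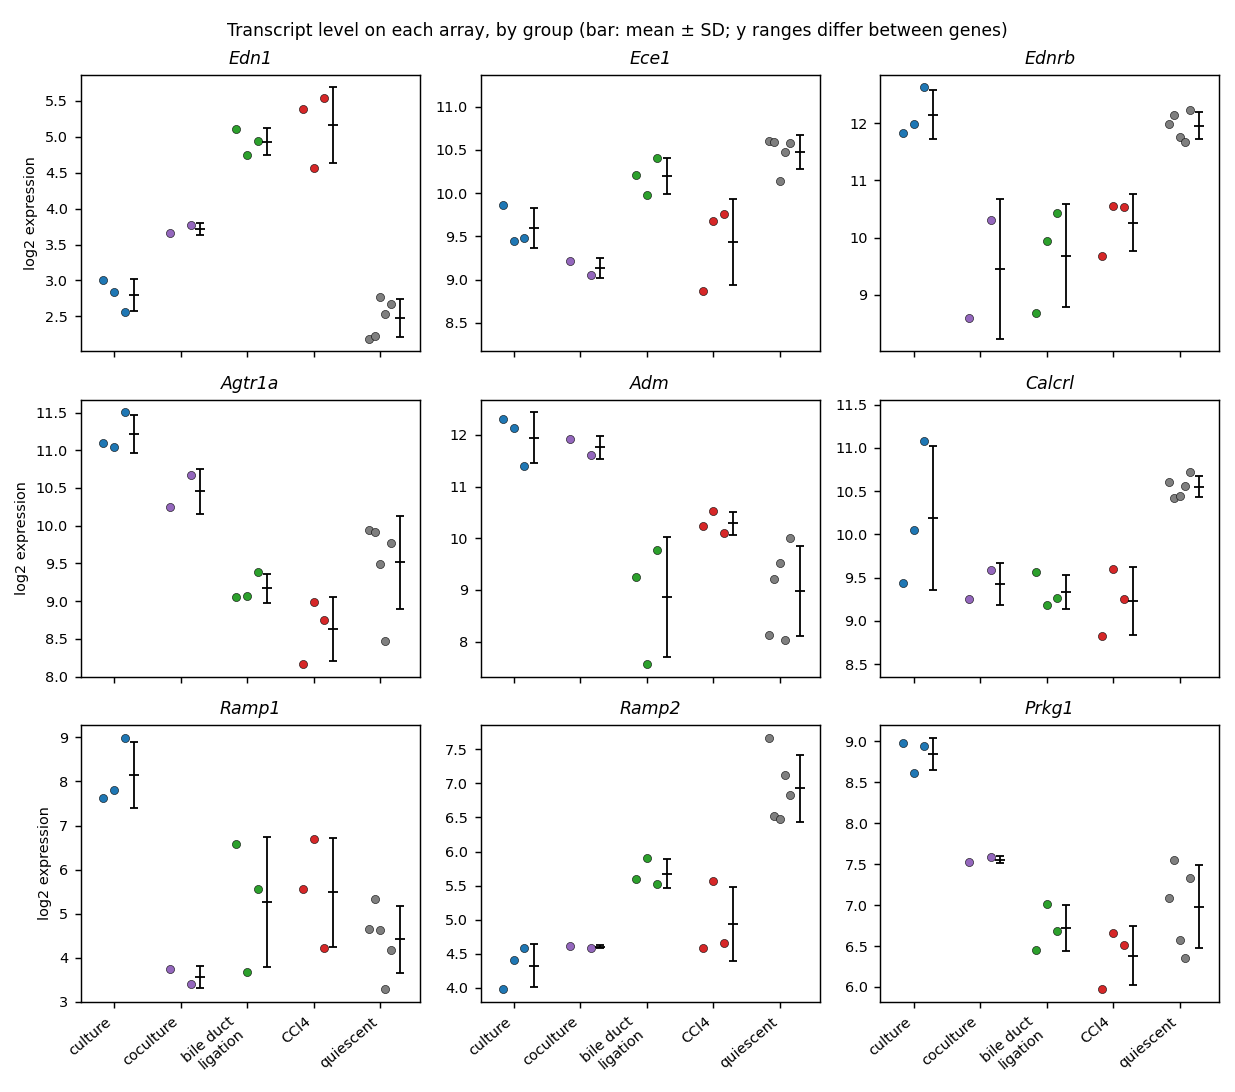
Log2 expression (y axis) of each of the 9 genes on each array (points) with the group mean ± SD (bars), by group (x axis). Injury arrays are highest for Edn1, culture arrays for Ramp1, Agtr1a and Prkg1, both cultures for Adm, and quiescent arrays for Ramp2 and Ece1 by mean.

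Ednrb, the receptor that binds all endothelins, fell in coculture and after both injuries and did not pass in culture. Probe set 1437347_at read 11.82, 11.98 and 12.63 in culture, 8.59 and 10.32 in coculture, 8.69, 9.94 and 10.43 after bile duct ligation, 9.69, 10.56 and 10.54 after CCl4, and 11.99, 12.14, 11.76, 11.67 and 12.22 in quiescent cells. The 8 arrays of coculture and injury lay below all 8 of culture and quiescence, and the 3 lower groups overlapped one another. Ednrb fell by 2.50 in coculture (SE 0.44; 5.67-fold; adjusted p = 0.000536), fell by 2.27 after bile duct ligation (SE 0.39; 4.82-fold; adjusted p = 0.00085) and by 1.69 after CCl4 (SE 0.39; 3.24-fold; adjusted p = 0.00616). Culture differed by 0.19 (95% interval -0.63 to 1.01; adjusted p = 0.719). Without coculture replicate 2, the lower of that pair, the coculture difference was -1.64 (adjusted p = 0.0234); without CCl4 replicate 1 that after CCl4 was -1.41 (adjusted p = 0.0511). The gene's other 2 probe sets also fell in these 3 states (-2.83 and -2.27 in coculture, -2.39 and -3.37 after bile duct ligation, -1.59 and -2.08 after CCl4), and neither passed in culture (0.27 and 0.95).

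**Figure D4:**
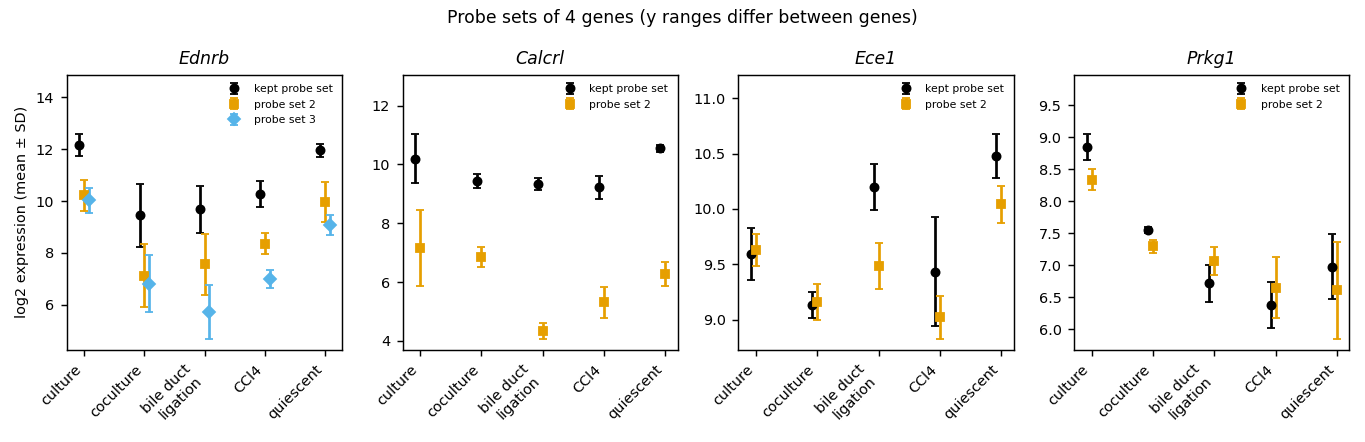
Group mean ± SD (y axis, log2 expression) of the expressed probe sets of 4 genes with more than 1 (panels), by group (x axis). The 3 Ednrb probe sets share the low coculture and injury means, and the 2 Calcrl probe sets differ in coculture.

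Agtr1a, the main receptor of angiotensin II in mouse vessels, rose in both cultures. Probe set 1436739_at read 11.10, 11.05 and 11.50 in culture, 10.24 and 10.67 in coculture, 9.06, 9.06 and 9.39 after bile duct ligation, 8.16, 8.98 and 8.75 after CCl4, and 9.94, 9.91, 9.49, 8.46 and 9.77 in quiescent cells. Culture lay above coculture and coculture above every other array, and both injuries overlapped the quiescent range, which quiescent replicate 4 extends downward. Agtr1a rose by 1.70 ± 0.28 in culture (3.25-fold; adjusted p = 0.000256) and by 0.94 ± 0.32 in coculture (adjusted p = 0.032), and after CCl4 it fell by 0.88 (SE 0.28; adjusted p = 0.0367). Neither the coculture nor the CCl4 call was firm: the adjusted p was 0.0624 and 0.233 without coculture replicate 2 or 3, and 0.214 without CCl4 replicate 1 (-0.65). The CCl4 call was also lost without CCl4 replicate 3 or without any one of quiescent replicates 1, 2, 3 and 5, with adjusted p of 0.0536 to 0.0776. After bile duct ligation the difference was -0.34 ± 0.28 (adjusted p = 0.448), and without quiescent replicate 4 it was -0.61 (adjusted p = 0.0397). The paralog Agtr1b stayed at background, with group means of 1.15 to 1.35.

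The rest of the renin-angiotensin list was mostly unexpressed. Of its 13 genes 10 had a probe set and 3 passed the filter. The precursor gene Agt (1.68 to 1.84), the converting enzyme Ace (2.54 to 3.02) and the receptor Agtr2 (1.15 to 1.21) had group means below the filter. Agtrap, which binds the angiotensin receptor and promotes its internalisation, rose in culture (0.74 ± 0.25; adjusted p = 0.0264) and fell after CCl4 (-1.29 ± 0.25; adjusted p = 0.00194). The renin receptor gene Atp6ap2, also a subunit of the vacuolar proton pump, rose in culture (0.45 ± 0.09) and coculture (0.60 ± 0.11) and fell after CCl4 (-0.30 ± 0.09). Neither passed after bile duct ligation.

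The vasodilator peptide gene Adm rose in both cultures. Probe set 1416077_at read 12.31, 12.14 and 11.39 in culture, 11.92 and 11.60 in coculture, 9.26, 7.57 and 9.78 after bile duct ligation, 10.24, 10.54 and 10.10 after CCl4, and 8.13, 9.22, 9.53, 8.03 and 10.01 in quiescent cells. The 5 cultured arrays lay above all others and overlapped each other, while bile duct ligation overlapped quiescent cells. The rise was 2.96 ± 0.48 in culture (7.80-fold; adjusted p = 0.000194) and 2.78 ± 0.54 in coculture (6.85-fold; adjusted p = 0.00114). After CCl4 all 3 arrays lay above the quiescent range, but the difference of 1.31 ± 0.48 did not pass (adjusted p = 0.0614); it passed without quiescent replicate 5 (1.56; adjusted p = 0.0311) or without bile duct ligation replicate 2 (0.0264) or 3 (0.0493). After bile duct ligation the difference was -0.11 (95% interval -1.12 to 0.90; adjusted p = 0.904). The other Adm probe set gave 2.70, 2.62, -0.05 and 1.25 in the 4 states, with the same calls.

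The receptor Calcrl, shared by CGRP and adrenomedullin, fell in coculture and after both injuries. Probe set 1425814_a_at read 9.44, 10.05 and 11.08 in culture, 9.25 and 9.59 in coculture, 9.56, 9.19 and 9.26 after bile duct ligation, 8.83, 9.60 and 9.25 after CCl4, and 10.61, 10.42, 10.45, 10.56 and 10.72 in quiescent cells. The coculture and injury arrays lay below the narrow quiescent range, and culture spread across it. Calcrl fell by 1.13 in coculture (SE 0.30; adjusted p = 0.00919), by 1.21 after bile duct ligation (SE 0.27; adjusted p = 0.00524) and by 1.32 after CCl4 (SE 0.27; adjusted p = 0.00257). In culture it differed by -0.36 (adjusted p = 0.292), and by -0.81 without culture replicate 3, its highest array (adjusted p = 0.00699). The other expressed probe set, at a lower level, fell after bile duct ligation (-1.96; adjusted p = 0.00497) but gave 0.56 in coculture (adjusted p = 0.388) and -0.98 after CCl4 (adjusted p = 0.117). Probe set 1459536_at of Calcrl stayed at background, with group means of 0.83 to 0.98, and counts in the average that follows. With all probe sets averaged, the coculture difference was -0.16 (adjusted p = 0.648) and that after CCl4 -0.77 (adjusted p = 0.026), and without coculture replicate 2 the coculture call was also lost (-0.96; adjusted p = 0.0978).

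Ramp1, the partner that makes Calcrl a CGRP receptor, rose in culture and did not pass in the other 3 states. Probe set 1417481_at read 7.63, 7.80 and 8.99 in culture, 3.74 and 3.39 in coculture, 6.57, 3.67 and 5.56 after bile duct ligation, 5.56, 6.69 and 4.21 after CCl4, and 4.66, 5.34, 4.63, 3.28 and 4.16 in quiescent cells. The 3 culture arrays lay above all 13 others, among which the groups overlapped. Probe sets 1431413_at and 1447474_at of Ramp1 stayed at background in every group, culture included. Their group means were 1.11 to 1.76 and 1.02 to 1.49, so the Ramp1 results rest on 1417481_at alone. Ramp1 was 3.72 ± 0.63 higher in culture than in quiescent cells (13.2-fold; adjusted p = 0.000297). The quiescent mean of 4.42 lay below the filter, so this fold depends on the background estimate. The differences of -0.85 in coculture, 0.85 after bile duct ligation and 1.07 after CCl4 did not pass (adjusted p = 0.376, 0.392 and 0.246), with 95% intervals of -2.38 to 0.69, -0.49 to 2.19 and -0.27 to 2.41. The injury groups had the widest spread of any group among the 9 genes, with SDs of 1.47 and 1.24 (n = 3 each).

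Ramp2, the partner that makes Calcrl an adrenomedullin receptor, fell in all 4 states. Probe set 1418187_at read 3.98, 4.41 and 4.59 in culture, 4.62 and 4.59 in coculture, 5.59, 5.91 and 5.52 after bile duct ligation, 4.58, 5.57 and 4.66 after CCl4, and 7.67, 6.52, 6.48, 7.13 and 6.83 in quiescent cells. Every quiescent array lay above all 11 others. Ramp2 fell by 2.60 in culture (SE 0.29; 6.08-fold; adjusted p = 7.49e-06), by 2.32 in coculture (SE 0.33; adjusted p = 8.5e-05), by 1.25 after bile duct ligation (SE 0.29; adjusted p = 0.00678) and by 1.99 after CCl4 (SE 0.29; adjusted p = 0.000188). The culture and coculture arrays lay below the filter, so the size of those falls depends on the background estimate. The endothelial marker Esam, a junction protein, fell in the same 4 states (-2.12, -1.38, -1.83 and -0.98). Egfl7, the other tested endothelial marker, fell only after CCl4 (-1.76). It differed by -0.35 in culture, 0.12 in coculture and -0.44 after bile duct ligation without passing. The endothelial list sum was 177 to 319 in quiescent cells and at most 246 elsewhere. The part of endothelial RNA in the Ramp2 result was not tested. Another 2 probe sets that the annotation gives to Ramp2 together with a second gene were left out. Ramp3, the remaining partner of Calcrl, stayed at 1.46 to 1.62.

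Among the other CGRP and adrenomedullin genes, 2 of those with a probe set passed the filter. Ackr3, a scavenging receptor that also takes up adrenomedullin, was higher in culture (4.00 ± 1.14, limma adjusted p = 0.0112). It passed the filter only through culture and coculture arrays, so its call in culture follows from its admission and is not read as a result. Its 2 coculture arrays read 1.46 and 8.78, too far apart for the difference of 2.95 to pass (adjusted p = 0.0871). Crcp, a component of the CGRP receptor complex, differed by at most 0.08 in size from quiescent cells in any state and was not called.

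Prkg1 rose in culture. Probe set 1444232_at read 8.98, 8.62 and 8.94 in culture, 7.52 and 7.58 in coculture, 6.45, 7.02 and 6.68 after bile duct ligation, 5.97, 6.66 and 6.51 after CCl4, and 7.09, 7.55, 6.58, 6.36 and 7.34 in quiescent cells. The culture arrays lay above all others, and each of the other states overlapped the quiescent range. The rise in culture was 1.86 ± 0.25 (3.64-fold; adjusted p = 4.76e-05), and the other probe set rose by 1.73. The differences of 0.57 in coculture, -0.26 after bile duct ligation and -0.60 after CCl4 did not pass (adjusted p = 0.13, 0.516 and 0.101), although without quiescent replicate 4 the last was -0.76 with adjusted p = 0.0268.

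Of the 11 other tested genes of natriuretic peptide, nitric oxide and cyclic GMP signalling, 5 rose and 0 fell in culture, where 18.5% of all tested genes rose and 23.5% fell. In coculture 1 rose and 2 fell (17.8% and 20.9% of all), after bile duct ligation 1 rose and 1 fell (8.03% and 8.83%), and after CCl4 2 rose and 2 fell (9.51% and 12.5%). Gucy1a2, a subunit of the nitric oxide receptor that makes cyclic GMP, rose in culture (1.84 ± 0.28; adjusted p = 0.00015) and differed by 0.01 in coculture. Npr3, the natriuretic peptide clearance receptor, rose in all 4 states, by 3.96 ± 0.27 in culture, 3.18 ± 0.31 in coculture, 1.16 ± 0.27 after bile duct ligation and 1.38 ± 0.27 after CCl4. Npr2, the receptor of C-type natriuretic peptide, fell in coculture (-1.47), after bile duct ligation (-2.24) and after CCl4 (-1.99) and differed by 0.15 in culture without passing. Prkg2, the other cyclic GMP-dependent kinase, averaged 1.50 in culture, 2.73 in coculture, 2.52 after bile duct ligation, 5.52 ± 1.10 after CCl4 (n = 3) and 1.78 ± 0.30 in quiescent cells (n = 5). It passed the filter only through its CCl4 arrays, so that its call after CCl4 follows from its admission and is not read as a result. The nitric oxide synthases Nos2 and Nos3 stayed below log2 2 in every group mean.

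Coculture was set against culture to compare stellate cells kept with and without Kupffer cells in the same medium. Here 3 of the 9 genes fell (Ednrb, Ramp1 and Prkg1) and 0 rose in the limma fit, where 15.4% of tested genes were called (8.37% higher and 7.03% lower). The coculture arrays lay clear above those of culture for 23.9% of tested genes and clear below for 22.3%. Ramp1 fell by 4.57 (SE 0.79; 23.8-fold; adjusted p = 0.00126), the coculture arrays at 3.74 and 3.39 against culture arrays at 7.63 to 8.99. The coculture arrays lay below the filter, so this fold depends on the background estimate. Ednrb fell by 2.69 (SE 0.48; 6.47-fold; adjusted p = 0.00175), and its other 2 probe sets fell as well (-3.10 and -3.21); without coculture replicate 2 the difference was -1.83 (adjusted p = 0.0497). Prkg1 fell by 1.29 (SE 0.32; adjusted p = 0.012), a call that was lost without coculture replicate 2 (adjusted p = 0.0912) or 3 (adjusted p = 0.0522), and its other probe set gave -1.04 (adjusted p = 0.11). Agtr1a (-0.76) and Calcrl (-0.77) were lower and Edn1 (0.92) was higher without passing (adjusted p = 0.167, 0.137 and 0.0764). Agtr1a passed without quiescent replicate 4 (adjusted p = 0.0327), and Calcrl without culture replicate 1 (-1.14; adjusted p = 0.0187). Adm differed by -0.19, with a 95% interval of -1.45 to 1.08, and Ramp2 by 0.28 (-0.48 to 1.04).

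In the cyclic GMP list 4 of the 11 other genes fell in coculture against culture and 0 rose, where 7.03% of all tested genes fell and 8.37% rose. By the naming rule these include Gucy1a2 (-1.83 ± 0.36; adjusted p = 0.00306) and Npr2 (-1.63 ± 0.31; adjusted p = 0.00261). The other 2, chosen after their values were seen, were the subunits of the main nitric oxide receptor, Gucy1a1 (-1.22; adjusted p = 0.0176) and Gucy1b1 (-1.04; adjusted p = 0.00534). Cd68, a lysosomal protein used as a macrophage marker, was 4.08 higher in coculture (7.82, n = 2) than in culture (3.74 ± 1.16, n = 3; adjusted p = 0.000547), while Adgre1 stayed at background in both. Lyz2, the other tested macrophage marker, differed by 0.54 between coculture and culture without passing (limma adjusted p = 0.699). In culture against quiescent cells Lyz2 differed by 2.93 and Cd68 by -3.28. Krt19 averaged 5.60 in coculture and 2.33 in culture. Of the 8 tested stellate markers 2 fell in coculture against culture, the secreted protein gene Reln (-2.46; adjusted p = 0.000684) and the growth factor receptor gene Pdgfrb (-0.76; adjusted p = 0.0263). The part of macrophage or other RNA in the falls of Ednrb, Ramp1 and Prkg1 was not tested.

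**Figure D5:**
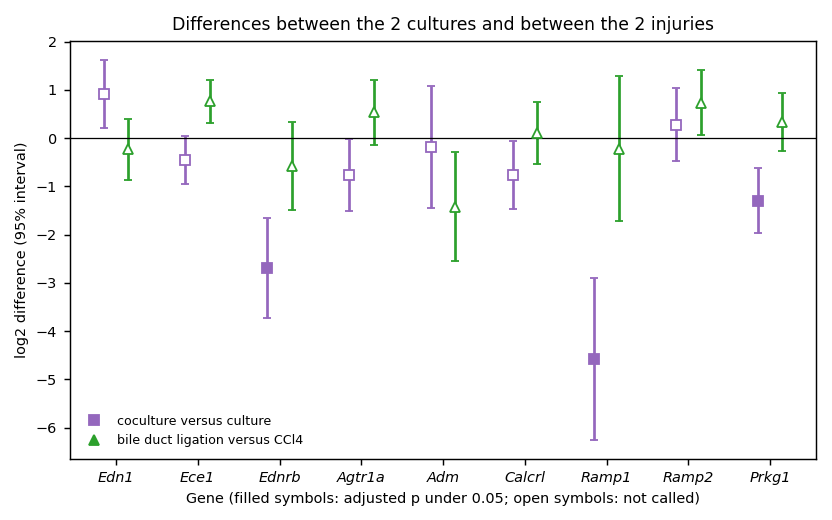
Log2 difference (y axis, 95% interval) of each gene (x axis) for coculture minus culture and for bile duct ligation minus CCl4, filled where adjusted p was under 0.05. Ramp1, Ednrb and Prkg1 lie below 0 in coculture, and no gene is filled between the injuries.

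Between the injuries, none of the 9 genes passed in the limma fit, where 0.166% of tested genes were called (0.0256% higher and 0.141% lower after bile duct ligation). Arrays without overlap were found for 13.5% of tested genes in the higher and 11.8% in the lower direction. Ece1 (0.76 ± 0.21; adjusted p = 0.151) and Ramp2 (0.74 ± 0.32; adjusted p = 0.317) were higher after bile duct ligation than after CCl4 without passing. Adm was lower without passing (-1.42 ± 0.53; adjusted p = 0.257). These genes had an unadjusted p under 0.05, a threshold at which the share of all tested genes was not counted. The 95% intervals of bile duct ligation minus CCl4 were -0.87 to 0.40 for Edn1, -1.50 to 0.35 for Ednrb and -0.53 to 0.74 for Calcrl. With 3 arrays in each group, differences within these intervals were not excluded. For Ramp1 the interval ran from -1.72 to 1.28.

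Culture was also compared with the mean of the 2 injury groups, where 50.9% of tested genes were called (25% higher and 25.9% lower). Of the 9 genes 6 were higher in culture, namely Ramp1 (2.76 ± 0.61), Adm (2.37 ± 0.46), Agtr1a (2.31 ± 0.27), Prkg1 (2.30 ± 0.24), Ednrb (2.17 ± 0.37) and Calcrl (0.91 ± 0.26). Edn1 (-2.25 ± 0.26) and Ramp2 (-0.98 ± 0.28) were lower in culture, and Ece1 did not pass (-0.22 ± 0.18; adjusted p = 0.328) except without CCl4 replicate 1 (-0.36; adjusted p = 0.0443). The adjusted p of Ramp1, Adm, Calcrl and Ramp2 was 0.00161, 0.000607, 0.00845 and 0.00797, and those of Edn1, Ednrb, Agtr1a and Prkg1 were at most 0.000235. The Edn1 call follows from its admission through the injury arrays and is not read as a result. The arrays overlapped for Calcrl and Ramp2 (those of 21.9% of tested genes lay clear above and 22.7% clear below), and without culture replicate 3 Calcrl was 0.46 higher and lost its call (adjusted p = 0.0732). The other Ece1 probe set was higher in culture (0.38; adjusted p = 0.0239). Time on plastic (5 days or 24 h), serum culture and injury differ together between these groups and cannot be told apart.

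The spans between the highest and lowest group mean were 4.57 for Ramp1, 3.08 for Adm, 2.69 for Ednrb and Edn1, 2.60 for Ramp2, 2.58 for Agtr1a, 2.46 for Prkg1, 1.34 for Ece1 and 1.32 for Calcrl, against a median of 0.886 over tested genes. Neighbours in the order of group means mostly overlapped, as for culture and quiescence in Ednrb or the injuries in Edn1. The order was clear of overlap from culture through coculture to the remaining groups in Agtr1a, and from CCl4 to quiescence in Adm. For Ramp2 the gap between quiescence (6.93 ± 0.49, n = 5) and bile duct ligation (5.67 ± 0.21, n = 3) was free of overlap.

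Receptors of other vasoactive ligands were mostly unexpressed: of 25 listed genes 20 had a probe set and 3 passed the filter. Vipr1, a receptor of vasoactive intestinal peptide, averaged 3.17 in culture, 2.47 in coculture, 2.80 after bile duct ligation, 2.76 after CCl4 and 5.41 in quiescent cells, through whose arrays alone it passed the filter, so its calls are not read as a result. Adra1b, an adrenergic receptor that drives contraction, fell in all 4 states (-1.33, -2.16, -3.06 and -2.31 in the same order). F2r, the thrombin receptor, rose in all 4 (1.55 ± 0.13, 0.95 ± 0.14, 0.86 ± 0.13 and 0.98 ± 0.13).

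Of 20 tested genes of contraction signalling downstream of these receptors, 6 rose and 4 fell in culture, 3 rose and 9 fell in coculture, 1 rose and 5 fell after bile duct ligation, and 1 rose and 8 fell after CCl4. Over all tested genes the shares that rose and fell were 18.5% and 23.5% in culture, 17.8% and 20.9% in coculture, 8.03% and 8.83% after bile duct ligation, and 9.51% and 12.5% after CCl4. Regulators of G protein signalling, which switch off receptor signals, differed among themselves. Rgs4 was higher in culture (1.77 ± 0.60, limma adjusted p = 0.0277) and in coculture (3.65 ± 0.69, adjusted p = 0.00087), where its arrays read 5.91 and 8.65. It passed the filter only through these groups. Its calls there, counted above among the genes that rose, follow from its admission and are not read as a result. After bile duct ligation and CCl4 Rgs4 gave -1.22 and -1.28 without passing. Rgs3 rose in culture (2.43 ± 0.28), coculture (1.46 ± 0.33) and after CCl4 (0.82 ± 0.28; adjusted p = 0.0492). Rgs5, also a pericyte marker, fell in all 4 states (-2.24, -1.20, -1.28 and -1.53). Arrb1, an arrestin that uncouples and internalises receptors, fell in coculture (-2.47 ± 0.71), after bile duct ligation (-2.59 ± 0.62) and after CCl4 (-3.27 ± 0.62) and gave -1.29 in culture without passing.

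For the 7 genes whose group means spanned at least 2, the tested genes of most similar pattern were found by the root mean square difference over the 16 arrays after centring each gene on its mean. Edn1 was nearest to Lgals3, which encodes galectin 3 (0.41), and Ccnyl1 (0.45). Lgals3 averaged 9.38 in culture, 10.20 in coculture, 11.18 after bile duct ligation, 11.26 after CCl4 and 8.60 in quiescent cells. Ednrb was nearest to Steap4, a metalloreductase gene (0.43), and the homeobox gene Hlx (0.53), and Agtr1a to Txndc16 (0.27) and Tmem176a (0.33). Adm was nearest to the interferon-inducible genes Trim30a (0.50) and Ifi47 (0.54); Ifi47 averaged 8.85 in culture, 9.52 in coculture, 5.87 after bile duct ligation, 6.51 after CCl4 and 5.73 in quiescent cells. Ramp1 was nearest to the integrin gene Itga8 (0.82) and Susd2 (0.88), which is a looser likeness than for the other 6 genes. Itga8 averaged 9.87 in culture, 5.47 in coculture, 6.31 after bile duct ligation, 6.75 after CCl4 and 5.90 in quiescent cells. Ramp2 was nearest to Oaf (0.37) and Nt5dc2 (0.51), and Prkg1 to Atp10d (0.31) and Fcgrt (0.33). These distances describe the 16 arrays and carry no test.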

How the data were processed

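RNA of 16 preparations was hybridised to oligonucleotide arrays, 1 each. The deposited values are log2 expression per probe set, made by the authors with GCRMA, per the submitters' processing notes, with version and options not given in the sources consulted. The method removes a sequence-based background estimate, which piles unexpressed probe sets near log2 2, and the fold of a gene near that level depends on it. No detection calls were used. Precision is limited by how many arrays there are.

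There were 45101 probe sets, 64 of them controls, and 0 value columns lacked a sample. The platform annotation gave 34945 probe sets a single gene symbol, covering 18193 genes, each taken from the probe set of highest mean. The 7823 genes that reached log2 5 on 2 or more arrays were fitted with limma 3.58.1 in R 4.3.3 (5 group means, all 16 arrays, eBayes with a variance trend). The 7 contrasts were tested two-sided with Benjamini-Hochberg adjustment over the 7823 genes, and calls are at an adjusted p under 0.05. The script was tested on simulated data. Errors are standard errors of differences or standard deviations (SD) of group values. Promoters were read from RefSeq's GRCm38.p6 table by symbol, and 8 of 10 genes were found there.

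The genes and the pathway and marker lists were chosen with earlier results of these data known. Besides the 9 genes, each pathway list could name up to 4 genes called against quiescent cells with the largest differences, and each gene with group means spanning at least 2 could name its 2 nearest; others are stated as chosen after their values were seen, as were marker genes and genes below the filter. The 26 alternatives covered the filter, the probe set rule, array weights, centring, the groups fitted, the variance trend, a replicate block and single arrays left out.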

Additional observations from a re-analysis of the deposited data

Results flagged for a closer look

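Ece1 in quiescent replicate 3 was 10.14, below the other 4 quiescent arrays at 10.47 to 10.60. Its gap to the nearest array was 0.716 of the group's range, above the critical value of 0.71 for 5 samples; 9 such groups were tested, and chance flags about 1 in 20.

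Stellate cells cultured with and without Kupffer cells differed in 3 of the 9 genes by the test of the difference itself, where 15.4% of all tested genes were called: Ramp1 by -4.57 (adjusted p = 0.00126), Ednrb by -2.69 (adjusted p = 0.00175) and Prkg1 by -1.29 (adjusted p = 0.012). Prkg1 lost its call without coculture replicate 2 (adjusted p = 0.0912) or 3 (0.0522), and its other probe set was not called (adjusted p = 0.11). Both coculture arrays lay below all 3 culture arrays for each of these genes, as they did for 22.3% of all tested genes.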

How the results depend on the processing

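Of the 63 gene-by-comparison results, 34 were called; 28 of these held under all 26 alternatives that gave a value, and 6 lost the call under at least 1. Of the 29 not called, 8 were called under at least 1 alternative. A reversal needed a call in the main fit or in the alternative, and 0 results reversed. Differences called in neither could change sign, as for Ednrb in culture (-0.12 to 0.47) and Adm after bile duct ligation (-0.57 to 0.54). The other Ece1 probe set, higher in culture than the injury mean (0.38), was not itself an alternative. Leaving out single arrays, the number of the 9 genes called ranged from 6 to 7 in culture, 5 to 7 in coculture, 4 to 5 after bile duct ligation and 4 to 7 after CCl4, each against quiescent cells, 2 to 4 in coculture against culture, 0 to 0 between the injuries and 7 to 9 in culture against the injury mean. A coculture array left alone is taken to vary as arrays of the other groups do.

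Agtr1a after CCl4 also lost its call with no filter (adjusted p = 0.0519), with arrays centred on their medians (0.0515), with only the compared groups fitted (0.0881) and without CCl4 replicate 3 (0.0691), and Agtr1a in coculture with only the compared groups fitted (0.086). Edn1 in coculture against culture was called with no variance trend (adjusted p = 0.0337), and array weights called Calcrl in culture (-0.54) and Ece1 against the injury mean (-0.38). The replicate block moved Agtr1a to 0.61 in coculture against quiescent cells (adjusted p = 0.0757) and -0.83 against culture (adjusted p = 0.0368) and changed no other call among the 9 genes. Of 26 same-numbered pairs 7 correlated above 0.1 (range -0.26 to 0.54), and 5 of 16 arrays correlated best with their own number, so the numbers were not taken to pair the samples. Culture and coculture share only 2 numbers, with correlations of 0.31 and 0.54; culture replicate 1 reached 0.45 with coculture replicate 2. Without the 3 arrays in doubt together (quiescent 4, culture 3 and CCl4 3), Calcrl in culture (-0.81), Agtr1a after bile duct ligation (-0.61) and Prkg1 after CCl4 (-0.82) were called, and Calcrl against the injury mean was not (0.47). The cause of these changes was not tested. Edn1 was not tested with the filter at log2 7, Ramp1 with probe sets averaged, nor Calcrl with single-gene probe sets first.

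Over all tested genes, calls in coculture against quiescent cells numbered 3031, and 2014 and 1862 without coculture replicate 2 or 3; in coculture against culture 1205, 601 with only those groups fitted and 446 without coculture replicate 2; after bile duct ligation 1319, and 784 without its replicate 1; after CCl4 1719, and 878 without its replicate 1; and between the injuries 13, with 4 to 173 under the alternatives.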
